A study of Mus musculus with 6 samples.

Results

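Transcripts of 10 chaperone genes were followed in 6 mouse heart libraries: the small heat shock proteins Hspb1, Hspb2, Hspb6, Hspb7, Hspb8 and Cryab, the co-chaperone Bag3, and the mitochondrial chaperones Hspd1, Hspe1 and Hspa9. They were chosen by gene symbol from a table of 16229 genes, with earlier results of these data known. All 10 were present and passed the filter on low values. The hearts came from male C57BL/6 mice aged 8 to 10 weeks. In the rivaroxaban group (replicates 14 and 15), mice received this oral inhibitor of coagulation factor Xa at 3 mg/kg for 7 days. In the dabigatran group (replicates 10 and 12), they received this inhibitor of factor IIa, thrombin, at 10 mg/kg for 7 days. The untreated group (replicates 8 and 9) received neither drug. The protocol text describes all samples as infarcted and adjoining heart tissue, and the labels do not say which mice had surgery or whether the libraries of a group came from separate mice. The p-values therefore cover only spread between these libraries, which may be technical. The fit draws each gene's spread partly from the other genes (3 residual and 7.75 prior degrees of freedom).

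Small heat shock proteins share an alpha-crystallin domain, bind unfolding proteins without using ATP and hold them for other chaperones; several are abundant in heart muscle, where their clients include the desmin and filamin networks. BAG3 links HSPB8 to the HSP70 chaperones and passes damaged filament proteins to autophagy. In the mitochondrial matrix, the HSP70 protein encoded by Hspa9 pulls imported chains through the membrane, and the HSP60 and HSP10 proteins encoded by Hspd1 and Hspe1 form a chamber in which they fold. Heat shock factor 1 drives many of these genes through DNA elements built from repeats of GAA and its complement TTC.

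Promoter sequence is shown for 4 windows, picked with the results known. They include Hspb7, the member that passed the test, and Hspb1 and Bag3, which lay on the other side of the untreated hearts. The last is that of Hspe1, which shares it in large part with Hspd1. Each window runs from 250 bases before the annotated start to 50 bases after it, 5′ to 3′ on the gene's strand, from RefSeq on GRCm38.p6. Capitals mark every match to the motifs GAANNTTC and TTCNNGAA, N positions included. Each reads the same on both strands, and where a GAA or TTC unit is shared by neighbouring matches they overlap and form a longer run of at least 3 units.
Hspb7, chr4:141420529-141420828, plus strand: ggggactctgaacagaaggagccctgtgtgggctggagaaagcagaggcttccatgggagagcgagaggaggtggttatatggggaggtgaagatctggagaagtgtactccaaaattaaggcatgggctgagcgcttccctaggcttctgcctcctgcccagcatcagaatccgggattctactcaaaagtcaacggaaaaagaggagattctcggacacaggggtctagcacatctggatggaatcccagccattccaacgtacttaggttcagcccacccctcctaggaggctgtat
Hspb1, chr5:135887669-135887968, plus strand: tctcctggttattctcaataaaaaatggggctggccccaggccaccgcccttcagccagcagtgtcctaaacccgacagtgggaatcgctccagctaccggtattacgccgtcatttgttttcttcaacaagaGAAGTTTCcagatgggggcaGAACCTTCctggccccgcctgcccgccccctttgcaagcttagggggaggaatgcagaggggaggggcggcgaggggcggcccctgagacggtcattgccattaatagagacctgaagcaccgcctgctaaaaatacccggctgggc
Bag3, chr7:128523333-128523632, plus strand: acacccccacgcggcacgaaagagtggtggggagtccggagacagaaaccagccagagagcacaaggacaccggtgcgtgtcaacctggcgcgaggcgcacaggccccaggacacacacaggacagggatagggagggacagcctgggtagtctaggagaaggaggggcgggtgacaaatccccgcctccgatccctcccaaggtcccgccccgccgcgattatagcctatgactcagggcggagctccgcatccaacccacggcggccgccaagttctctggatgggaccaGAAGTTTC
Hspe1, chr1:55087898-55088197, plus strand: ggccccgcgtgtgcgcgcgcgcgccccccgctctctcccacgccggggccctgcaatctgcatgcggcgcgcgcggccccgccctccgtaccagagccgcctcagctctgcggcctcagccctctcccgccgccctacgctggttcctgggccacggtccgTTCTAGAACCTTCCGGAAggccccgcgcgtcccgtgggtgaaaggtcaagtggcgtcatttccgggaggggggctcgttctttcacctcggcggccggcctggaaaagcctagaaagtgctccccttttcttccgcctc
The Hspb7 window held none of these letters. The Hspb1 window held 2 separate copies of GAANNTTC, and the Bag3 window held 1 at its last 8 bases, after the start. In the Hspe1 window the matches overlap in a single run of alternating units that begins 89 bases before the start. A window of Hspd1, on the opposite strand, shares 285 bases with it and holds the same run. Of the 7 members with a promoter in the table, 6 held at least 1 of the 8-base motifs in a window. Among them were Hspb8 and Hspb6, not shown, whose log2 changes with dabigatran were 0.05 and -0.08, neither passing. Whether motifs go with the direction of change was not tested. A run of 3 units was held by 2 members, Hspd1 and Hspe1, as the same stretch of DNA. Hspd1 and Hspb6 each also had a window without a motif. Among all 32851 windows of this length, 15.1% held an 8-base motif and 0.603% a run of 3 units. These shares count single windows while the member counts allow any window of a gene, so they are not like for like. These matches describe letters and not binding.

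Library depth ran from 27176892 to 43798222 reads summed over the genes of the table, and the members had between 2232 reads (Hspb2, rivaroxaban replicate 15) and 134389 reads (Hspb7, dabigatran replicate 12) in a library. Of 8 cardiomyocyte markers 6 were in the table, and their summed level lay between 71350 and 76370 CPM (counts scaled to library size) in every library. Of the skeletal muscle markers 3 of 6 were listed and summed to at most 2.91 CPM; that tissue also makes small heat shock proteins. The 5 neutrophil markers summed to between 2.35 and 3.69 CPM over the 6 libraries. Csf3r was the highest of them, at 1.54 to 2.34 CPM, and S100a8 and S100a9 were at or under 0.577 CPM. Mesothelial markers summed to 30.8 and 37.7 CPM with rivaroxaban and 41.2 and 43.1 CPM with dabigatran, against 70.8 and 67.8 CPM in untreated hearts, and 5 of 5 fell with rivaroxaban and 3 with dabigatran. Smooth muscle markers summed to 702 and 695 CPM with rivaroxaban and 739 and 689 CPM with dabigatran, against 744 and 762 CPM in untreated hearts, and of these 5 genes 1 fell with rivaroxaban and 0 with dabigatran. Over all tested genes, 0.986% passed lower with rivaroxaban and 0.501% with dabigatran. The part of the mesothelial and smooth muscle lists in the members' values was not tested.

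Levels between genes were compared as CPM per kilobase of merged exon. Hspb7 and Cryab, the chaperone of desmin filaments best known from the eye lens, stood highest. Hspb7 averaged 1126 CPM per kb with rivaroxaban and 1068 with dabigatran, against 1368 in untreated hearts. Cryab averaged 1324 with rivaroxaban and 1429 with dabigatran, against 1355 CPM per kb in untreated hearts. The ranges of these 2 genes over the 6 libraries overlapped, and Hspb7 ranked first in untreated hearts and second, after Cryab, in both drug groups. Hspb6, a small heat shock protein phosphorylated by protein kinase A, followed at 571 to 682 CPM per kb over all libraries. Hspb8 (343 to 391) and Hspb1 (281 to 377 CPM per kb) came next and overlapped. Below them stood Hspa9 (241 to 258), Hspd1 (208 to 230) and Bag3 (173 to 197 CPM per kb), whose ranges did not overlap. Hspb2 (90.8 to 116) and Hspe1 (78.1 to 92.1 CPM per kb) were lowest and overlapped each other. The order of these 8 genes was the same in all 3 groups. Together the 10 genes took 0.996% and 0.989% of the reads with rivaroxaban and 0.974% and 1.004% with dabigatran, against 1.10% and 1.02% in untreated hearts.

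**Figure D1:**
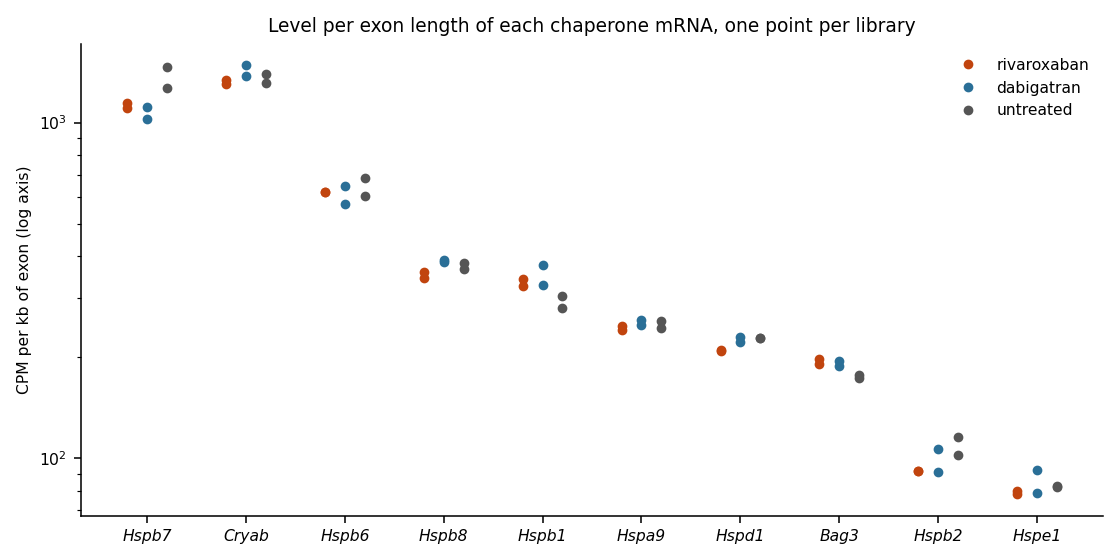
Level of each chaperone mRNA as CPM per kb of merged exon on a log axis, with 1 point per library coloured by group, genes ordered by their mean in untreated hearts. Hspb7 and Cryab lie at or above 1024 CPM per kb in every library, and Hspe1 lies between 78.1 and 92.1.

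The first question was what each anticoagulant left changed in these chaperone transcripts. With dabigatran, 1 of the 10 members passed a limma adjusted p of 0.05 over all 12981 tested genes: Hspb7 fell to 0.782 of its untreated level. With rivaroxaban no member passed, and Hspb7 stood at 0.825 of its untreated level. Over all tested genes, 1.88% passed with dabigatran (1.38% higher, 0.501% lower) and 2.46% with rivaroxaban (1.47% higher, 0.986% lower). A single call among 10 genes is too few to set the members apart from the rest of the table. At an unadjusted p under 0.05 the counts were 3 of 10 members with dabigatran and 5 of 10 with rivaroxaban, against 14.7% and 17.2% of all tested genes. Because the members were chosen with earlier results of these data known, these counts cannot show that the set changed more than other genes. The median log2 change of the members was 0.03 with dabigatran and -0.06 with rivaroxaban, against medians of 0.0026 and 0.0050 over all tested genes. Both comparisons use the same 2 untreated libraries.

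All 4 treated hearts lay outside both untreated hearts in 3 members, lower for Hspb7 and higher for Hspb1 and Bag3. This held for 26.4% of all tested genes. Taking each drug alone, the libraries did not overlap with the untreated ones in 7 members with rivaroxaban (2 higher, 5 lower), where 50.6% of all tested genes did not (26.1% higher, 24.5% lower). With dabigatran this was so for 4 members (3 higher, 1 lower), where 43.6% of all tested genes did not overlap (22.8% higher, 20.8% lower).

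**Figure D2:**
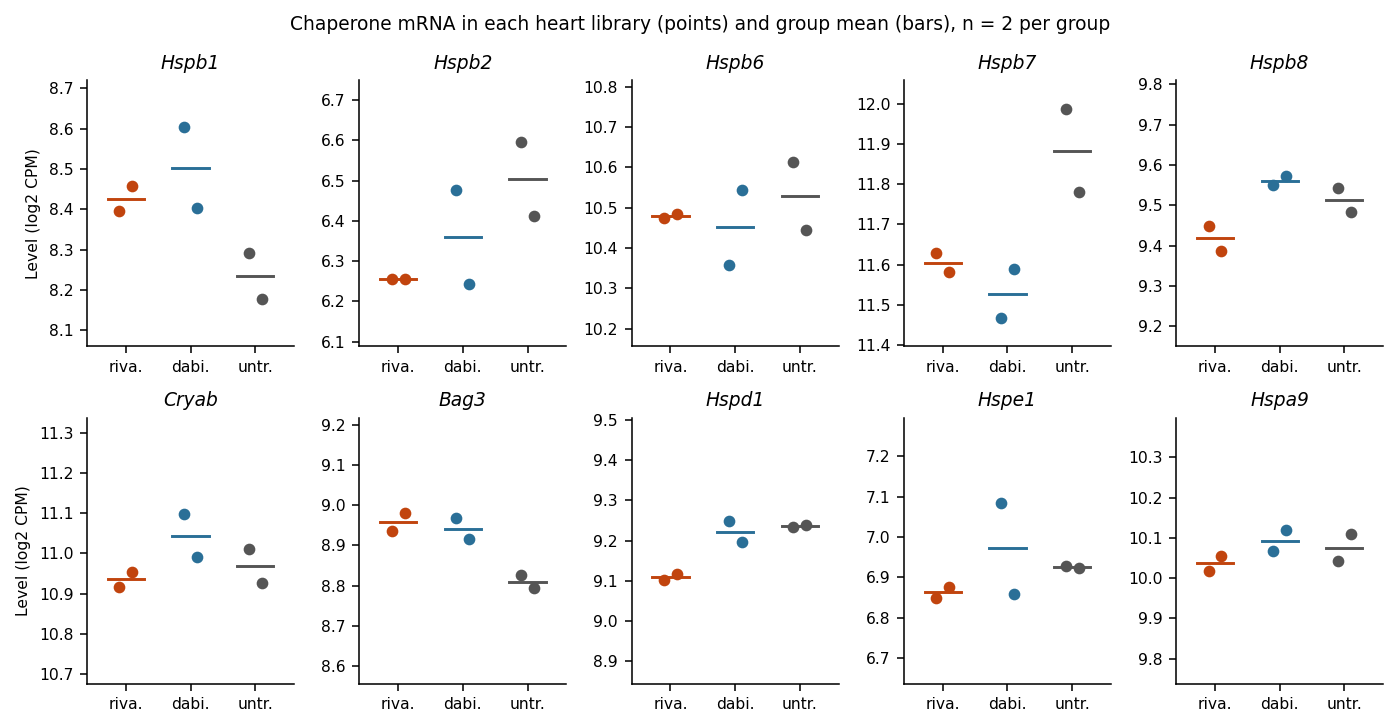
Level in log2 CPM of each chaperone mRNA in every library (points) with the group mean (bar), n = 2 per group; every panel spans the same log2 width. The 4 treated libraries lie below both untreated ones for Hspb7, between 11.47 and 11.63 against 11.78 and 11.99, and above them for Hspb1 and Bag3.

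Hspb7 (ENSMUSG00000006221, chr4:141420779-141425311 on GRCm38, protein-coding) encodes a small heat shock protein that is needed for thin filament assembly in the mouse heart. Its level was 11.63 and 11.58 log2 CPM with rivaroxaban and 11.47 and 11.59 with dabigatran, against 11.99 and 11.78 in untreated hearts. Every treated library was thus below the lower untreated one, although the untreated pair themselves differed more (SD 0.15) than the rivaroxaban pair (SD 0.03) or the dabigatran pair (SD 0.08). The log2 change was -0.35 with dabigatran (SE 0.07, 95% interval -0.51 to -0.20, limma adjusted p = 0.0369). With rivaroxaban it was -0.28 (SE 0.07, 95% interval -0.44 to -0.12, limma adjusted p = 0.0776). The drugs did not differ beyond their spread (log2 0.08, 95% interval -0.08 to 0.24, limma adjusted p = 0.836). The dabigatran call was lost without dabigatran replicate 10 (log2 -0.30, adjusted p = 0.199), without untreated replicate 8 (log2 -0.25, adjusted p = 0.192), without either rivaroxaban library (adjusted p = 0.0705 and 0.0714), in a fit of the 2 groups alone (adjusted p = 0.0686) and without the mean-variance trend (adjusted p = 0.244). Without untreated replicate 9 the rivaroxaban change passed as well (log2 -0.38, adjusted p = 0.0306), and without untreated replicate 8 it was -0.17 (adjusted p = 0.357).

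Hspb7 is made by heart muscle cells, and in bulk tissue fewer cells of a type and less RNA per cell cannot be told apart. The summed level of the cardiomyocyte markers was 71350 and 72870 CPM with rivaroxaban and 73650 and 74680 CPM with dabigatran, against 74970 and 76370 CPM in untreated hearts, and 0 of its 6 tested genes passed with either drug. Against other small heat shock proteins of the same libraries, the log2 difference Hspb7 minus Hspb6 was 1.15 and 1.10 with rivaroxaban and 1.11 and 1.04 with dabigatran, against 1.37 and 1.33 in untreated hearts. The difference Hspb7 minus Cryab was 0.71 and 0.63 with rivaroxaban and 0.37 and 0.60 with dabigatran, against 0.98 and 0.85 in untreated hearts. In both, the treated libraries lay below the untreated ones. Hspb7 had been taken up for its low treated values, and Hspb6 and Cryab overlapped untreated hearts, so the choice of genes favours this outcome. These differences were not tested. Hspb7 was not set against the muscle genes Hspb2 and Hspb3, which also had negative log2 changes, none of them passing. For Hspb2 and Hspb3 in turn these were -0.25 and -0.34 with rivaroxaban and -0.14 and -0.24 with dabigatran. Over the 6 libraries, the tested genes closest to Hspb7 in their deviations from their own mean were Dgkb, Astn2 and Zfp157, with root mean square differences of 0.027, 0.037 and 0.039 on the log2 scale. None of these 3 genes passed on its own. Their log2 changes of -0.37, -0.36 and -0.37 with dabigatran follow from their being picked for likeness to Hspb7.

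Hspb1, the HSP25 protein that protects actin filaments, had the highest positive values of the set. It stood at 8.40 and 8.46 log2 CPM with rivaroxaban and 8.60 and 8.40 with dabigatran, against 8.29 and 8.18 in untreated hearts. All treated libraries were above both untreated ones, with dabigatran replicate 10 the highest. The log2 change was 0.27 with dabigatran (SE 0.07, 95% interval 0.12 to 0.42, limma adjusted p = 0.0867) and 0.19 with rivaroxaban (SE 0.07, 95% interval 0.04 to 0.34, limma adjusted p = 0.184). Neither passed; without dabigatran replicate 12 the dabigatran value did (log2 0.37, adjusted p = 0.0201), and without dabigatran replicate 10 it was 0.17 (adjusted p = 0.376).

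Bag3, the co-chaperone whose loss causes cardiomyopathy, varied little within groups. It had 8.94 and 8.98 log2 CPM with rivaroxaban and 8.97 and 8.91 with dabigatran, against 8.83 and 8.79 in untreated hearts. Each drug group lay above untreated hearts, while the drug groups overlapped each other, with a log2 change of 0.15 with rivaroxaban (SE 0.05, 95% interval 0.04 to 0.26, limma adjusted p = 0.144) and 0.13 with dabigatran (SE 0.05, 95% interval 0.03 to 0.24, limma adjusted p = 0.23). Hspb8, which encodes the small heat shock protein that BAG3 binds, had a level of 9.45 and 9.39 log2 CPM with rivaroxaban and 9.55 and 9.57 with dabigatran, against 9.54 and 9.48 in untreated hearts. The rivaroxaban libraries were thus lowest and the dabigatran ones highest, by a narrow margin. The log2 change of Hspb8 was -0.09 with rivaroxaban (limma adjusted p = 0.362) and 0.05 with dabigatran (limma adjusted p = 0.711). The log2 difference Bag3 minus Hspb8 was -0.51 and -0.41 with rivaroxaban and -0.58 and -0.66 with dabigatran, against -0.72 and -0.69 in untreated hearts.

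Cryab and Hspb2 lie head to head on chromosome 9 and their annotations overlap by 1030 bases on opposite strands. The library kit keeps strand, but whether reads were counted by strand is not given in the sources used here, so reads of the overlap cannot be assigned with certainty. Cryab had 10.92 and 10.95 log2 CPM with rivaroxaban and 11.10 and 10.99 with dabigatran, against 11.01 and 10.93 in untreated hearts. Each drug group overlapped the untreated hearts, while the rivaroxaban pair lay below the dabigatran pair. Cryab had log2 changes of -0.03 with rivaroxaban (95% interval -0.16 to 0.09, limma adjusted p = 0.805) and 0.08 with dabigatran (95% interval -0.05 to 0.20, limma adjusted p = 0.59). Hspb2, a muscle small heat shock protein that binds the myotonic dystrophy kinase, had 6.26 and 6.26 log2 CPM with rivaroxaban and 6.48 and 6.24 with dabigatran, against 6.60 and 6.41 in untreated hearts. The rivaroxaban pair was below both untreated hearts, while dabigatran replicate 10 lay between them. Its log2 change was -0.25 with rivaroxaban (SE 0.08, 95% interval -0.43 to -0.06, limma adjusted p = 0.159) and -0.14 with dabigatran (SE 0.08, 95% interval -0.33 to 0.04, limma adjusted p = 0.468). The log2 difference Hspb2 minus Cryab lay at -4.66 and -4.70 with rivaroxaban and -4.62 and -4.75 with dabigatran, against -4.42 and -4.51 in untreated hearts.

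Hspb6, whose annotation overlaps Proser3 by 122 bases on the opposite strand, showed no order between the groups. It had 10.48 and 10.48 log2 CPM with rivaroxaban and 10.36 and 10.54 with dabigatran, against 10.61 and 10.44 in untreated hearts. The ranges overlapped, and the log2 change was -0.05 with rivaroxaban (95% interval -0.21 to 0.11, limma adjusted p = 0.764) and -0.08 with dabigatran (95% interval -0.24 to 0.08, limma adjusted p = 0.668).

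**Figure D3:**
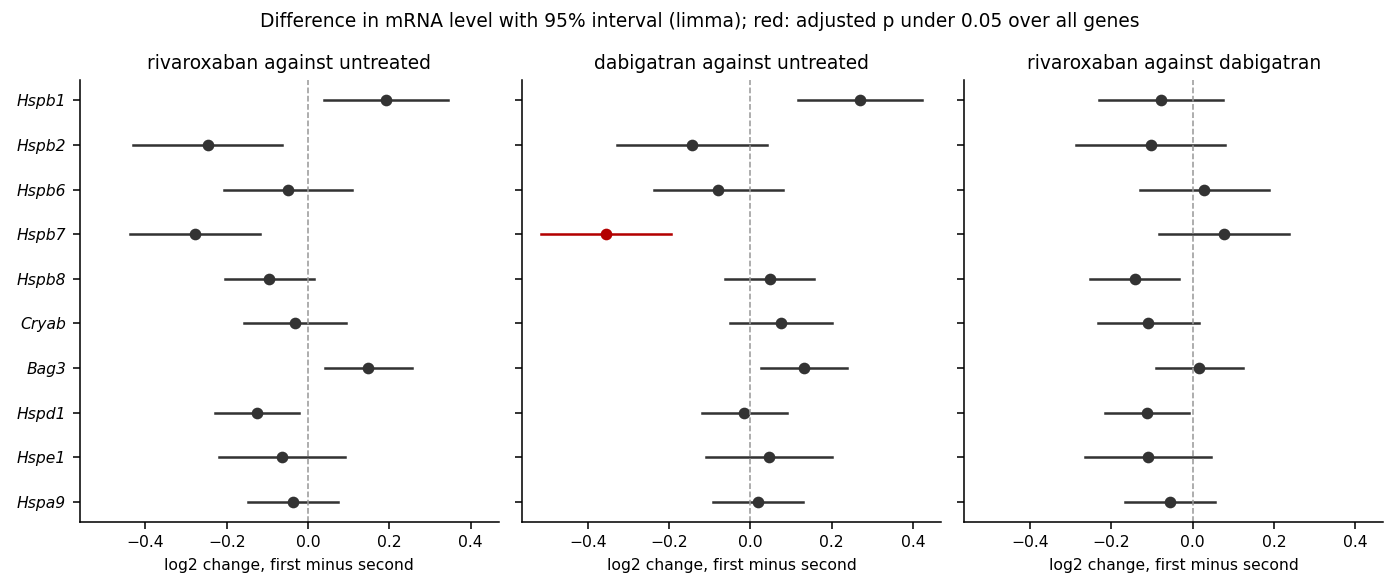
Log2 change of each chaperone mRNA with its 95% interval in the 3 comparisons (limma, n = 2 per group), red where the adjusted p over all tested genes was under 0.05. Hspb7 with dabigatran is the one red point, at -0.35, and every interval lies within a log2 of -0.51 to 0.42.

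The mitochondrial chaperones differed less from untreated hearts than Hspb7 or Hspb1 did in size. Hspd1 and Hspe1, whose proteins work as one machine, lie head to head on chromosome 1 with 112 overlapping bases. Hspd1 had 9.10 and 9.12 log2 CPM with rivaroxaban and 9.25 and 9.20 with dabigatran, against 9.23 and 9.24 in untreated hearts. The rivaroxaban pair was below all other libraries, with a log2 change of -0.13 (SE 0.05, 95% interval -0.23 to -0.02, limma adjusted p = 0.2) that did not pass. With dabigatran Hspd1 had a log2 change of -0.01 (95% interval -0.12 to 0.09, limma adjusted p = 0.924). Hspe1 stood at 6.85 and 6.88 log2 CPM with rivaroxaban and 7.08 and 6.86 with dabigatran, against 6.93 and 6.92 in untreated hearts. Dabigatran replicate 10 was its highest library and dabigatran replicate 12 lay among the rivaroxaban values. The log2 change of Hspe1 was -0.06 with rivaroxaban (95% interval -0.22 to 0.09, limma adjusted p = 0.682) and 0.05 with dabigatran (95% interval -0.11 to 0.20, limma adjusted p = 0.816). The log2 difference Hspe1 minus Hspd1 stayed between -2.34 and -2.16 in all libraries.

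Hspa9, the mitochondrial HSP70, was the steadiest member, with a range of 0.10 over the 6 libraries. It had 10.02 and 10.06 log2 CPM with rivaroxaban and 10.07 and 10.12 with dabigatran, against 10.04 and 10.11 in untreated hearts. Each drug group overlapped the untreated hearts, while the rivaroxaban pair lay below the dabigatran pair. Its log2 change was -0.04 with rivaroxaban (95% interval -0.15 to 0.07, limma adjusted p = 0.736) and 0.02 with dabigatran (95% interval -0.09 to 0.13, limma adjusted p = 0.909). By name, the annotation lists 5 pseudogenes or related sequences of Hspd1, 6 of Hspe1 and 1 of Hspa9. None is in the table, so reads shared with such copies make these 3 values less certain.

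The drugs were also set against each other, at the 1 dose given of each (3 mg/kg of rivaroxaban, 10 mg/kg of dabigatran). No member passed by limma, where 0.077% of all tested genes did. At an unadjusted p under 0.05 there were 2 of 10 members, against 8.43% of all tested genes. The lowest p belonged to Hspb8, at 9.45 and 9.39 log2 CPM with rivaroxaban against 9.55 and 9.57 with dabigatran (log2 -0.14, 95% interval -0.25 to -0.03, limma adjusted p = 0.454). For Hspd1 the log2 difference was -0.11 (95% interval -0.22 to -0.0082, limma adjusted p = 0.55). In 7 of 10 members the rivaroxaban mean was below the dabigatran mean, with a median of -0.09 against 0.0011 over all tested genes. The libraries did not overlap in 4 members, all lower with rivaroxaban, where 39.7% of all tested genes did not overlap (19.3% higher, 20.4% lower). Over the 10 members the lowest bound of an interval was -0.29 (Hspb2) and the highest 0.24 (Hspb7), which does not show that the drugs act alike.

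Genes of the same pathways were read as counts and medians beside the members. Of 12 cytosolic heat shock response genes, 5 passed higher with dabigatran and 3 with rivaroxaban, and none passed lower. Over all tested genes, 1.38% passed higher with dabigatran and 1.47% with rivaroxaban. This list was chosen with earlier results of these data known. The median log2 change of the 12 genes was 0.37 with dabigatran and 0.25 with rivaroxaban. Dnajb1, an HSP40 co-chaperone and common readout of heat shock factor activity, had 5.12 and 5.39 log2 CPM with rivaroxaban and 5.71 and 5.16 with dabigatran, against 4.47 and 4.43 in untreated hearts. Its log2 change was 0.98 with dabigatran (limma adjusted p = 0.01). In the same hearts the 10 members ran from -0.35 (Hspb7) to 0.27 (Hspb1), with -0.01 for Hspd1 and 0.05 for Hspe1. None of the members passed higher. Hspa1b, an inducible HSP70 whose near-identical copy Hspa1a can share its reads, rose with dabigatran (log2 1.36, limma adjusted p = 0.0376), and had a log2 change of 1.12 with rivaroxaban (limma adjusted p = 0.0677). Dnaja1, another HSP40, and Hsph1, an HSP110 exchange factor, rose with both drugs, by a log2 of 0.65 and 0.56 with rivaroxaban (limma adjusted p = 0.0205 and 0.0181) and 0.78 and 0.58 with dabigatran (limma adjusted p = 0.0108 and 0.0187). Hsp90aa1, a cytosolic HSP90 named here after its values were seen, was the fifth gene to rise with dabigatran (log2 0.44, limma adjusted p = 0.0376). None of the calls of Dnajb1, Hspa1b, Dnaja1 and Hsph1 held without the mean-variance trend. With rivaroxaban the 3 calls ended without rivaroxaban replicate 15 (adjusted p = 0.21 to 0.223), that of Dnajb1 also without untreated replicate 8 or 9 (0.098 and 0.0845), that of Dnaja1 without untreated replicate 9 (0.104) and that of Hsph1 without untreated replicate 8 (0.13). With dabigatran, Dnajb1 did not pass without untreated replicate 8 or 9 (adjusted p = 0.0603 and 0.0505), Dnaja1 without untreated replicate 9 (0.0609), Hsph1 without dabigatran replicate 10 or untreated replicate 8 (0.0846 and 0.135), and Hspa1b without dabigatran replicate 10 or untreated replicate 8 or 9 (0.0916, 0.202 and 0.088), after quantile normalization (0.0703) or with voom weights (0.0969). The rivaroxaban value of Hspa1b passed without dabigatran replicate 10 or 12 (adjusted p = 0.00269 and 0.00237) and in a fit of the 2 groups alone (0.00264).

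Of 12 BAG family and chaperone-assisted autophagy genes, 1 passed higher with dabigatran, where 1.38% of all tested genes did, and 0 passed with rivaroxaban. The gene was Synpo, an actin-binding relative of the BAG3 partner synaptopodin-2. It had 7.28 and 7.50 log2 CPM with rivaroxaban and 7.46 and 7.56 with dabigatran, against 7.18 and 6.95 in untreated hearts (log2 0.45 with dabigatran, limma adjusted p = 0.0339; log2 0.33 with rivaroxaban, limma adjusted p = 0.0832). The dabigatran call ended without either dabigatran library (adjusted p = 0.0768 and 0.107), without untreated replicate 9 (adjusted p = 0.125), after quantile normalization (adjusted p = 0.0712) and without the trend (adjusted p = 0.244). Synpo2, which encodes synaptopodin-2 and is named here after its values were seen, did not pass. It had a log2 change of 0.18 with dabigatran (limma adjusted p = 0.151) and 0.04 with rivaroxaban (limma adjusted p = 0.767). The list's median log2 change was 0.07 with dabigatran and 0.06 with rivaroxaban.

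Of the 9 tested mitochondrial import genes, none passed with either drug, and all 9 lay below 0 with rivaroxaban, at log2 changes of -0.25 to -0.03 and a median of -0.16. With dabigatran 7 of the 9 lay below 0, with a median of -0.07. The lowest p of the list was that of Timm17b, a channel subunit of the inner membrane, at 4.85 and 4.86 log2 CPM with rivaroxaban and 5.05 and 4.98 with dabigatran, against 5.11 and 5.11 in untreated hearts (log2 -0.25 with rivaroxaban, limma adjusted p = 0.083). Mitochondrial co-chaperones (9 tested) and mitochondrial proteases (9 tested) had 0 calls with either drug and medians between -0.06 and 0.03. Among them Grpel1, the exchange factor of the mitochondrial HSP70, had a log2 change of -0.18 with rivaroxaban (limma adjusted p = 0.11) and Lonp1, a matrix protease, one of 0.12 with dabigatran (limma adjusted p = 0.338). Of 5 tested mitochondrial stress regulators none passed. Atf4, a stress transcription factor, had a log2 change of 0.32 with rivaroxaban (limma adjusted p = 0.0563) and 0.33 with dabigatran (limma adjusted p = 0.059). Its rivaroxaban value passed in a fit of those 2 groups alone (limma adjusted p = 0.0234) and did not without the mean-variance trend (limma adjusted p = 0.249). Gdf15, a secreted stress cytokine named here after its values were seen, had one of 0.97 with rivaroxaban (limma adjusted p = 0.0562) and 0.76 with dabigatran (limma adjusted p = 0.143).

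None of the 4 genes of the heat shock factor list (Hsf1, Hsf2, Hsf4 and the factor-binding Hsbp1) passed, with log2 changes of -0.16 to 0.08 over both drugs; Hsf2 had the lowest p (log2 -0.13 with rivaroxaban, limma adjusted p = 0.441). None of the 8 cytoskeletal client genes passed either, and their medians were -0.01 with rivaroxaban and -0.0021 with dabigatran. Vim, an intermediate filament gene of non-muscle cells, had the lowest p there, between the drugs (rivaroxaban minus dabigatran log2 0.40, limma adjusted p = 0.229). Against untreated hearts its log2 change was -0.32 with dabigatran (limma adjusted p = 0.136) and 0.08 with rivaroxaban (limma adjusted p = 0.7). Hspb3, a muscle small heat shock protein outside the 10, had 3.51 and 3.33 log2 CPM with rivaroxaban and 3.57 and 3.48 with dabigatran, against 3.76 and 3.77 in untreated hearts. It lay below both untreated hearts in all 4 treated libraries, as did 11.7% of all tested genes, and did not pass (log2 -0.34 with rivaroxaban, limma adjusted p = 0.113; log2 -0.24 with dabigatran, limma adjusted p = 0.297). Hspb11, the other tested gene of that list, had a log2 change of -0.19 with rivaroxaban (limma adjusted p = 0.533) and 0.01 with dabigatran (limma adjusted p = 0.979), where it overlapped untreated hearts.

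**Figure D4:**
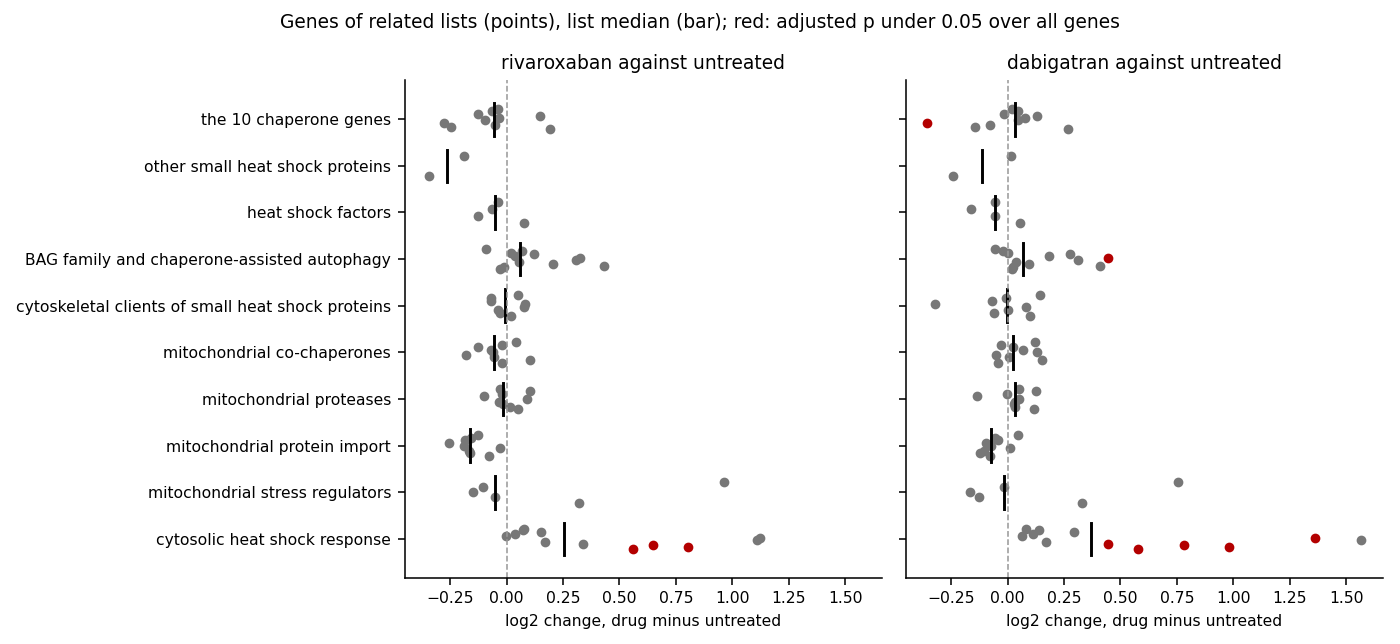
Log2 change of every tested gene (points) in the chaperone set and in 9 related lists, for each drug against untreated hearts, with the list median as a bar and red for an adjusted p under 0.05 over all tested genes. The red points fall in the cytosolic heat shock response with both drugs (3 with rivaroxaban, 5 with dabigatran) and, with dabigatran, on Hspb7 and Synpo; the mitochondrial import genes lie below 0 with rivaroxaban.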

How the data were processed

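Poly-A RNA libraries were made with a directional kit, per the labels' protocols. Per the submitters' processing notes, bcl2fastq, FastQC, Trim Galore, STAR and edgeR were used on mm10; no source used here gives the counter, the annotation or the versions. The deposited values are log2 CPM scaled by TMM by the authors, per the file headers and name, with a shared floor of -4.04. Whole reads recovered after subtracting that floor (100% of values under 200 steps whole within 0.02 reads) gave the depths, so intervals rest on library spread rather than counting error.

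The 12981 of 16229 genes whose mean log2 CPM was 0 or more were fitted with limma 3.58.1 in R 4.3.3 (3 group means, mean-variance trend; 3 residual and 7.75 prior degrees of freedom), two-sided, Benjamini-Hochberg over all tested genes, threshold 0.05; the fit was tested on simulated data. Members and lists were chosen with earlier results of these data known. Named genes were all members, the called genes of each list (up to 4 by size) or else its lowest p, and the 3 genes nearest to a called member. Positions and exon lengths are from GENCODE M21 on GRCm38, matched by Ensembl identifier. Alternatives covered trend, filters, pseudocount, scaling, samples and, chosen after seeing the data, voom weights.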

Additional observations from a re-analysis of the deposited data

How the results depend on the processing

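No paired analysis was possible because the labels give no replicate number that 2 groups share. The planned count models on recovered reads were not run; limma with voom weights on those reads, chosen after seeing the data, was run in their place. Members called with dabigatran against untreated were 0 without the mean-variance trend and in the fit of the 2 groups alone, and 0 to 2 with 1 library left out; with rivaroxaban against untreated they were 0 to 1 with 1 library left out (main counts 1 and 0). Over all genes, no gene passed in any comparison without the trend (limma; 1938, 1728 and 984 genes at an unadjusted p under 0.05 with rivaroxaban, with dabigatran and between the drugs). With dabigatran 154 genes passed after quantile normalization, against 244 as reported, and 73 to 269 with 1 library left out. With rivaroxaban 61 to 407 passed with 1 library left out, against 319. Between the drugs 1 passed after quantile normalization, 6 in the fit of the 2 groups alone and 0 to 20 with 1 library left out, against 10. Centring each sample on its median moved the share of higher calls by less than 10 percentage points.

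Signs turned in values that did not pass. After quantile normalization Hspa9 with dabigatran was -0.024 and Hsph1 between the drugs 6e-04. With 1 library left out, log2 changes with rivaroxaban ran from -0.13 to 0.035 for Hspb6, -0.075 to 0.0097 for Cryab and -0.077 to 0.24 for Vim. With dabigatran they ran from -0.17 to 0.014 for Hspb6, -0.066 to 0.16 for Hspe1, -0.040 to 0.012 for Hspd1 and -0.016 to 0.051 for Hspa9. Between the drugs they ran from -0.18 to 0.023 for Hspb1, -0.22 to 0.014 for Hspb2, -0.064 to 0.12 for Hspb6, -0.010 to 0.043 for Bag3, -0.22 to 0.0031 for Hspe1, -0.12 to 0.10 for Atf4, -0.80 to 0.33 for Hspa1b, -0.46 to 0.10 for Dnajb1, -0.33 to 0.062 for Dnaja1 and -0.18 to 0.14 for Hsph1. The causes were not tested. Hspb7 kept its sign under all 14 alternatives with each drug against untreated, from -0.46 to -0.25 with dabigatran and -0.38 to -0.17 with rivaroxaban.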
